A study of Mus musculus with 8 samples.

Results

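The dystrophin complex genes are 8 genes of the protein assembly that links the inner skeleton of a muscle fibre to the matrix outside it: Dmd, Utrn, Dag1, Sgca, Sgcb, Sgcd, Dtna and Lama2. They were taken by gene symbol from a table of alternative polyadenylation sites (APSs), the positions where the 3′ ends of polyadenylated RNAs were read, and they hold 322 of its 56483 APSs and are 8 of its 15349 gene symbols. The RNA came from gastrocnemius, a calf muscle, of male mice. AMPK is a kinase that responds to the energy state of the cell, and each model lacks 1 of its catalytic subunits in the whole animal. The 4 groups were AMPKα1 KO, AMPKα1 WT, AMPKα2 KO and AMPKα2 WT, with 2 mice and 1 library per mouse in each. The labels give C57BL/6 as background for all mice, whereas the methods name the AMPKα1 KO line as 129S2/SvPas and give it a younger age in weeks than the AMPKα2 KO line. No age was found for the WT mice, so genotype cannot be told apart from background or age.

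Dystrophin, the product of Dmd, binds actin beneath the fibre membrane and, through the membrane protein dystroglycan (Dag1), reaches laminin in the basement membrane, of which laminin α2 (Lama2) is the muscle form. The sarcoglycans (Sgca, Sgcb and Sgcd encode the α, β and δ subunits) steady dystroglycan in the membrane, and α-dystrobrevin (Dtna) joins dystrophin on the inner side. Utrophin (Utrn) is the close relative of dystrophin that is concentrated at the neuromuscular junction in adult muscle. Mutations in most of these genes cause muscular dystrophy. In GRCm38 the genes span 13.5 kb (Sgca, chr11:94962791-94976327) to 2257.3 kb (Dmd, chrX:82948870-85206141). Between these lie Sgcb (chr5:73632749-73647790), Dag1 (chr9:108204634-108263958), Dtna (chr18:23415135-23659715), Utrn (chr10:12382188-12869365), Lama2 (chr10:26980036-27619758) and Sgcd (chr11:46896253-47988969).

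Libraries held 2311242 to 3549156 reads, and 82.1 to 98.1% of the reads of a library lay at APSs with a gene symbol. Dmd had 17613 reads in all and the other members 1191 (Utrn) to 3761 (Sgcd). Of all reads, 52.5% were from AMPKα1 libraries, but of member reads 85.1% were. Over all genes the median ratio of AMPKα1 to AMPKα2 reads was 4.73. It was higher for Dtna (10.02), Lama2 (9.63), Dmd (8.08) and Sgcb (4.90), and lower for Utrn (3.81), Dag1 (3.18), Sgcd (3.16) and Sgca (2.73). A level set across the models therefore depends on the scaling. Levels are given as CPM, reads scaled to a common library size within a model. The deleted parts of the kinase genes were not placed against the sites of these genes, so their reads do not check the labels. Prkaa1, which encodes AMPKα1, had 0 and 82 reads in AMPKα1 KO and 15 and 0 in AMPKα1 WT, all at an intronic site. Prkaa2, which encodes AMPKα2, had 40 and 71 reads in AMPKα2 KO and 87 and 62 in AMPKα2 WT. Of these, 21 and 31 in KO and 27 and 24 in WT lay at an exonic site away from the 3′ end. Among markers of other cell types Cnn1, Cd68, Sox10, Pax7 and Cidec were at 0 in at least 1 library. Several marker lists separated the groups in summed CPM, and their part in the results below was not tested. The 8 fibre markers were lower in both AMPKα1 KO libraries (47226 and 56290) than in both WT (67194 and 106548), but higher in both AMPKα2 KO (51258 and 85679) than in both WT (43974 and 44682). The slow fibre list was higher in KO in both models, with 2056 and 4284 against 1366 and 1535 in AMPKα1, and 1941 and 1971 against 541 and 1133 in AMPKα2. The endothelial list was lower in KO in both, at 193 to 219 against 272 to 320 in AMPKα1 and 62.4 to 65.2 against 66.9 to 69.6 in AMPKα2. In AMPKα1 the smooth muscle (292 to 293 against 123 to 206) and adipocyte (68.3 to 178 against 33.3 to 59.0) lists were higher in both KO. The Schwann cell (462 to 567 against 628 to 1160) and satellite cell (23.2 to 55.2 against 59.5 to 78.6) lists were lower there, and these 4 lists overlapped in AMPKα2. The fibroblast, macrophage and erythroid lists overlapped in both models.

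Each member had 1 APS within 50 bases of its RefSeq 3′ end, here called the terminal APS. The 30 bases that end at the site are given in GRCm38 from GENCODE transcripts, on the transcribed strand, with the polyadenylation hexamer (AATAAA, or ATTAAA where that is absent) in capitals. For Dtna and Sgcd these bases could not be read.
Dmd, chrX:85205016-85205045, plus strand: ctcAATAAAgcacgcagttatgttacaaaa
Utrn, chr10:12382193-12382222, minus strand: ttcatcctgAATAAAagtaattttaacaca
Dag1, chr9:108204867-108204896, minus strand: aaactaAATAAAagcagtgtctttattaca
Sgca, chr11:94962798-94962827, minus strand: gcacccaaaAATAAAaaaaatacctgctgc
Sgcb, chr5:73632749-73632778, minus strand: ctgtttacAATAAAgctctgtgaacttggc
Lama2, chr10:26981287-26981316, minus strand: tatgattATTAAAccaattatttcattcta
AATAAA stood in 5 of these sequences and ATTAAA in Lama2. On that strand AATAAA stood in 65.98% of 4988 terminal APSs of all genes whose 30 bases could be read, and ATTAAA alone in 14.3%. For comparison, AATAAA stood in 19.7% of 14937 other exonic APSs.

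The members differed in where their reads ended. Sgca was read almost wholly at its terminal APS, with 98.3% ± 3.4 of its reads in the AMPKα1 libraries and 94.8% ± 3.2 in the AMPKα2 libraries (SD, n = 4). Dag1 followed with 54.1% ± 14.0 and 69.8% ± 8.4, and Sgcb with 38.0% ± 17.9 and 43.7% ± 8.2. Dmd was read mainly in its introns. They held 166 of its 173 APSs and 98.7% ± 0.8 of its reads in AMPKα1 and 96.0% ± 1.3 in AMPKα2, where introns took 8.61% ± 2.31 and 18.1% ± 2.0 of the reads of all genes. Long genes as a class were read more in introns: the 214 genes that span over 500 kb had median intron shares of 64.9% in AMPKα1 and 45.5% in AMPKα2. Introns also held on average over 50% of the reads of the other members over that span, with 77.8% ± 11.5 and 55.9% ± 8.4 for Lama2 and 53.0% ± 16.1 and 73.5% ± 5.25 for Sgcd. The paper reported A-rich stretches downstream of part of the APSs of protein-coding genes. The sequence around intronic APSs could not be read here, so whether they are true RNA ends was not tested.

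**Figure D1:**
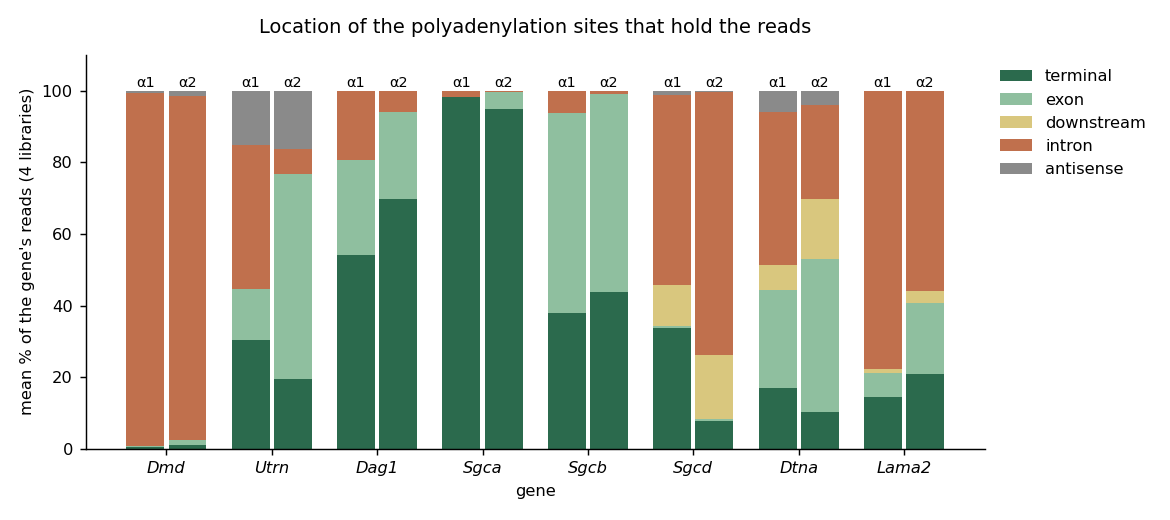
Mean percent of the reads of each gene, over 4 libraries per model, at the terminal APS, other exonic APSs, APSs downstream of an annotated end, intronic APSs and antisense APSs. Sgca was read at its terminal APS and Dmd in its introns in both models.

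The Dmd terminal APS had 0 and 38 reads in AMPKα1 KO, 6 and 17 in AMPKα1 WT, 3 and 9 in AMPKα2 KO, and 5 and 5 in AMPKα2 WT. The highest of these was 0.78% of the Dmd reads in AMPKα1 (Wilson 95% interval 0.57 to 1.07%) and 1.37% in AMPKα2 (0.58 to 3.16%), and the intervals cover counting error only. The library at 0 had 5376 Dmd reads, which allows a share of up to 0.0558%. The terminal share was lower in all AMPKα1 than in all AMPKα2 libraries, as it was for 5.76% of 2448 genes.

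The longest Dmd transcript spans 2257.2 kb, and the 173 APSs of the gene were the third most of any gene, against a median of 2 per gene. Reads were densest toward the 5′ end. With the gene cut into 4 equal lengths, these held from 5′ to 3′ 61.8% ± 3.6, 14.8% ± 1.6, 15.3% ± 3.9 and 8.09% ± 2.47 of the sense reads in AMPKα1 (SD, n = 4). In AMPKα2 they held 56.2% ± 4.3, 24.3% ± 3.6, 14.2% ± 1.0 and 5.31% ± 1.49. The third length lay above the second in both AMPKα1 WT libraries (17.96 against 13.5% and 19.3 against 14.6%). Introns 1 and 2 made up 17.7% of the intron length of the longest transcript and held 57.3% of its intronic reads and 61 APSs. Intron 1 had 2711 reads per 100 kb and intron 2 had 2311, whereas intron 44, the longest at 249.5 kb, had 984 and intron 55, of 126.4 kb, had 247. Some short introns with 1 APS were denser, with 28199 in intron 40 (0.8 kb), 4028 in intron 39 (2.9 kb) and 2957 in intron 22 (0.9 kb). Of the 78 introns, 35 held an APS.

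**Figure D2:**
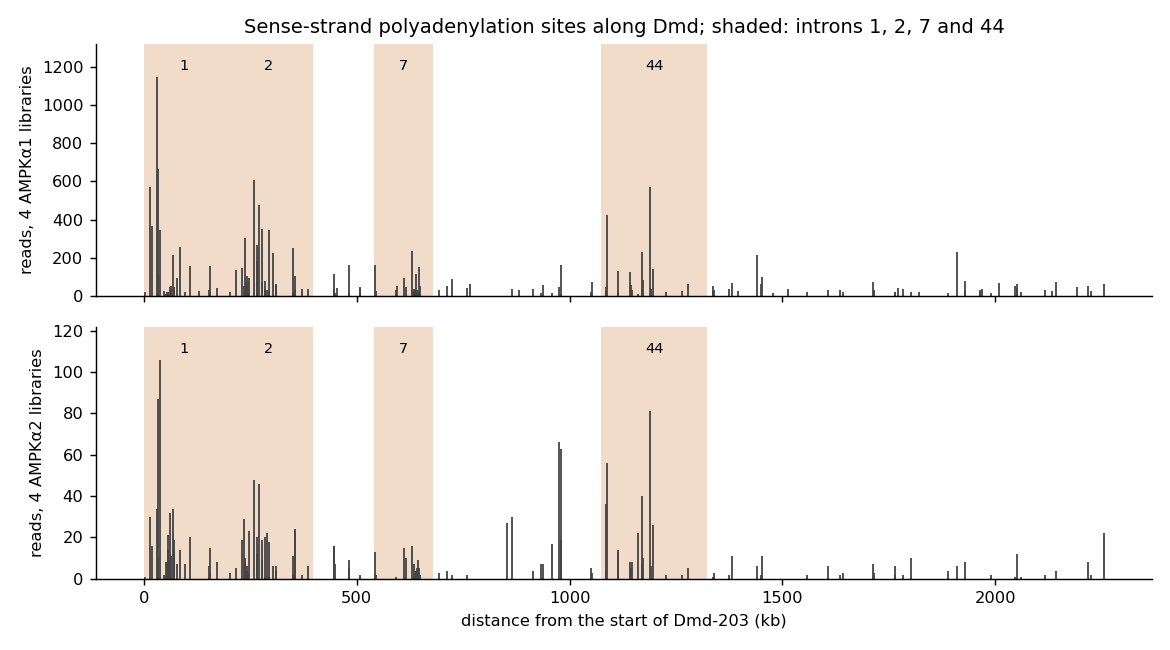
Reads at each sense-strand APS of Dmd, summed over the 4 libraries of a model, by distance from the start of the longest transcript in kb. The highest site lies in intron 1 in both models.

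The APS with the most reads over all 8 libraries lay in intron 1 (chrX:82979500). It had 491 and 380 reads in AMPKα1 KO, 85 and 192 in AMPKα1 WT, 6 and 7 in AMPKα2 KO, and 14 and 7 in AMPKα2 WT. Its log2 difference of KO from WT was 1.14 (SE 0.61, edgeR adjusted p = 0.543) in AMPKα1, where the KO libraries were above the WT libraries. In AMPKα2 it held 34 reads, and the highest site there was another in intron 1 (chrX:82987563), with 106. Single Dmd sites repeated poorly between the AMPKα1 KO libraries: of the 106 Dmd APSs with at least 20 reads in 1 AMPKα1 KO library, 62 had no read in the other. The same held for 51.3% of all APSs and for 68.1% of intronic ones in that group, and for 0.728% of all APSs in AMPKα2 KO. Between the AMPKα1 WT libraries it held for 15 of 63 Dmd APSs and for 25.4% of all APSs. The lowest p of a Dmd APS in AMPKα2 was at chrX:82967142 in intron 1, where KO had 3 and 8 reads and WT 4 and 1 (log2 difference 1.39, edgeR adjusted p = 0.706).

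Summed over its APSs, Dmd did not pass the test in either model. In AMPKα1 it had 1530 and 1342 CPM in KO and 978 and 1058 in WT, a log2 difference of 0.50 (SE 0.33, edgeR quasi-likelihood adjusted p = 0.763). In AMPKα2 the KO libraries had 314 and 678 reads and the WT libraries 581 and 366, or 234 ± 48 CPM in KO and 172 ± 2 in WT (SD, n = 2), a difference of 0.45 (SE 0.25, adjusted p = 0.666). Both KO libraries lay above both WT libraries in each model, as they did for 13.6% of genes in AMPKα1 and 18.7% in AMPKα2. Leaving out 1 library moved the AMPKα2 difference to between 0.22, without KO replicate 2, and 0.64, without KO replicate 1. The slow fibre list was also higher in those KO libraries of both models, the fibre list lower in AMPKα1 KO and higher in AMPKα2 KO, and their part was not tested. With chrX:82979500 alone, the AMPKα2 difference was -0.18. In whole muscle, fewer cells of a type and less RNA per cell cannot be told apart.

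**Figure D3:**
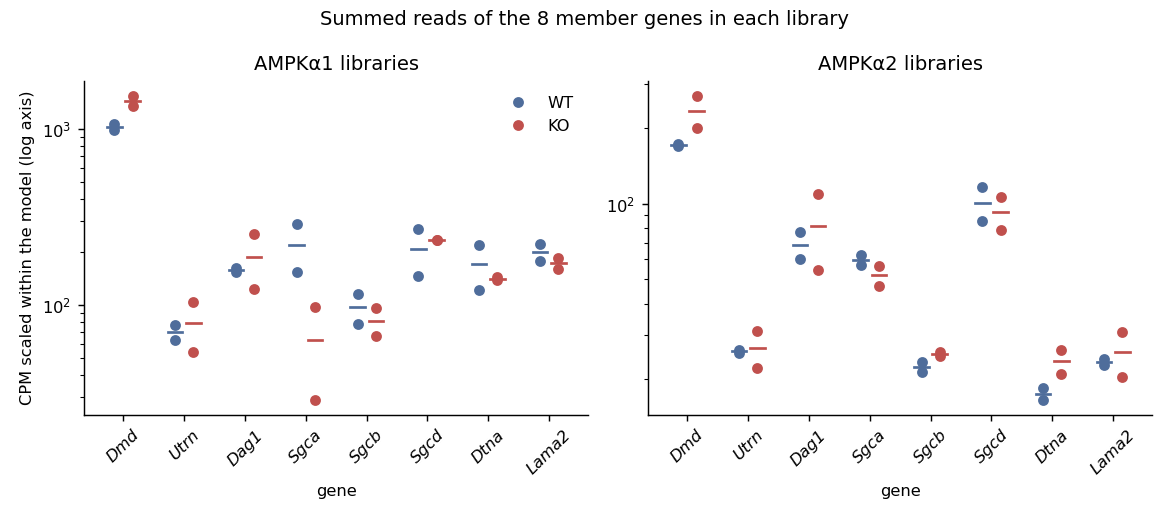
CPM of each member gene in each library on a log axis, scaled within a model so that the panels cannot be compared in level. Points are libraries and bars are group means of 2. Dmd was higher and Sgca lower in both KO than in both WT libraries of each model.

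No member passed the adjusted p of 0.1 in the gene test of either model. This was 0 of 8 in AMPKα1, where 0% of 13924 genes passed and 589 had an unadjusted p under 0.05, and 0 of 8 in AMPKα2, where 0.484% of 10536 genes passed and 889 had an unadjusted p under 0.05. With an unadjusted p under 0.05 there was 1 member in AMPKα1 (Sgca) and 0 in AMPKα2. DESeq2 also called 0 members, where it called 1.14% of 10081 genes in AMPKα1 and 1.27% of 5815 in AMPKα2. The median log2 difference of the members was -0.02 in AMPKα1 and 0.16 in AMPKα2, against -0.03 and -0.01 over all genes. With 2 libraries against 2, an exact permutation test of 1 gene cannot go below 0.333.

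Utrn had 53.8 and 103.6 CPM in AMPKα1 KO and 63.4 and 76.5 in WT, and 31.2 and 22.1 in AMPKα2 KO against 25.5 and 26.1 in WT. The groups overlapped, and the log2 differences were 0.17 (SE 0.53) and 0.04 (SE 0.30). The terminal APS held 30.4% ± 6.1 of Utrn reads in AMPKα1 and 19.4% ± 9.7 in AMPKα2, where all genes together had 56.3% ± 3.5 and 32.1% ± 3.8. Introns held 40.2% ± 6.6 and 6.91% ± 3.88, higher in all AMPKα1 than in all AMPKα2 libraries, which also held for 7.66% of 3119 genes. A site chosen after its values were seen, chr10:12720833, here called the short end, lies in an exon of the Utrn transcript that also holds the terminal APS. The name is only a label, and whether a transcript ends at this site was not tested. It had 0 and 15 reads in AMPKα1 KO, 34 and 53 in AMPKα1 WT, 11 and 15 in AMPKα2 KO, and 32 and 15 in AMPKα2 WT. The 30 bases before it held neither hexamer, and the 14 bases after it that could be read held up to 7 As in 10. In AMPKα1 the lowest p was at chr10:12501354 in an intron, which had 71 reads in KO replicate 2 and none in any other library. In AMPKα2 it was that of the terminal APS, where KO had 10 and 3 reads and WT 23 and 14 (log2 difference -1.07, SE 0.74, edgeR adjusted p = 0.74).
Utrn short end, chr10:12720833-12720862, minus strand: ataagaagtcgcaggagacctcaggaatga

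Dag1, from which both dystroglycan subunits are cut, had 251 and 123 CPM in AMPKα1 KO and 161 and 154 in WT, and 109 and 54.6 in AMPKα2 KO against 60.2 and 77.2 in WT. The WT libraries lay between the KO libraries in both models, with log2 differences of 0.25 (SE 0.48) and 0.24 (SE 0.33). Its terminal APS had 108 and 86 reads in AMPKα2 KO and 153 and 129 in WT, a log2 difference of -0.19 (SE 0.41). The lowest p in AMPKα1 was at chr9:108229601 in an intron, with 30 reads in WT replicate 2 and none in the other 3 libraries of that model. A second site in the last exon, chr9:108205954, held 709 reads and is followed by a run of 10 As, given in capitals.
Dag1 downstream of that site, chr9:108205924-108205953, minus strand: AAAAAAAAAAgattaaaaaatggtgatgct

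The member APS with the lowest p in AMPKα2 was also in Dag1, at chr9:108208675 inside the last exon. It had 33 and 19 reads in AMPKα2 KO, 6 and 3 in AMPKα2 WT, and none in the 4 AMPKα1 libraries. That was 19.3% and 13.8% of the Dag1 reads in KO and 2.93% and 1.84% in WT. The log2 difference was 2.93 (SE 0.67, edgeR adjusted p = 0.465), so it did not pass, while 0.056% of 23218 APSs did. The test of APS usage, which asks whether the split of the reads of a gene over its APSs differs, gave Dag1 an adjusted p of 0.507 in AMPKα2. No member passed that test in either model, where 0.0131% of 7644 genes in AMPKα1 and 0.182% of 3843 in AMPKα2 did. The call depends on the fit: it passed with no filter beyond 1 read (adjusted p = 0.00403), where 1.11% of APSs passed. No hexamer stood in the 30 bases before it.
Dag1 exonic site, chr9:108208675-108208704, minus strand: gccgttattactcctccaacaactaccaca

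Sgca had the lowest gene p of the members in AMPKα1. It had 97.1 and 29.0 CPM in KO and 286 and 154 in WT, with no overlap, and a log2 difference of -1.80 (SE 0.69, unadjusted p = 0.0384, edgeR adjusted p = 0.763). In AMPKα2 it had 47.1 and 56.5 CPM in KO and 62.5 and 56.9 in WT, a difference of -0.20 (SE 0.25, edgeR adjusted p = 0.879). Both KO lay below both WT for 18.9% of genes in AMPKα1 and 20.5% in AMPKα2. The AMPKα1 difference depended on single libraries: it was -2.93 without KO replicate 1, -1.19 without KO replicate 2 and -1.29 without WT replicate 1. In the latter fits the edgeR unadjusted p was 0.141 and 0.176. The summed fibre, endothelial, Schwann cell and satellite cell lists were also lower in both AMPKα1 KO libraries and the slow fibre, smooth muscle and adipocyte lists higher, and in AMPKα2 the fibre list was higher in KO while Sgca was lower. Their part was not tested. The terminal APS held almost all Sgca reads, so its direction is not a separate result. It had 341 and 105 reads in AMPKα1 KO against 524 and 496 in WT (log2 difference -1.93, SE 0.66, edgeR adjusted p = 0.543). In AMPKα2 the lowest p was at chr11:94962880 in an exon, where KO had 7 and 8 reads and WT 4 and 3 (log2 difference 1.38, edgeR adjusted p = 0.687). The KO effect was 1.57 higher in AMPKα2 than in AMPKα1 on the log2 scale (SE 0.78, edgeR interaction adjusted p = 0.751), and no member passed that test, as 0.0586% of 15349 genes did. Without AMPKα1 KO replicate 1, Sgca passed it with a difference of 2.73 (adjusted p = 0.0691), as did 3.67% of genes.

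Sgcb had 66.3 and 96.7 CPM in AMPKα1 KO and 77.6 and 116 in WT, which overlapped, and 24.8 and 25.7 in AMPKα2 KO against 23.5 and 21.3 in WT, where both KO were higher, as for 18.7% of genes. The log2 differences were -0.25 (SE 0.50) and 0.17 (SE 0.29). Most of its reads lay at the terminal APS, with 583, or at chr5:73633602 in the same exon, with 545. That second end had the lowest p in AMPKα2, with a log2 difference of 0.34 (SE 0.52, edgeR adjusted p = 0.884), and also had an AATAAA before it. In AMPKα1 the lowest p was at chr5:73635234 in an exon, with no read in KO and 17 and 35 in WT. In these libraries that is at least 11.6-fold lower in KO when KO is set to 3 reads per library. The log2 difference was -8.00 (SE 3.85, edgeR adjusted p = 0.543). Of all APSs with at least 20 reads in 1 AMPKα1 KO library, 51.3% had none in the other.
Sgcb second end, chr5:73633602-73633631, minus strand: ttaAATAAAtatttttactaaatccacaga

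Sgcd had 232 and 235 CPM in AMPKα1 KO and 145 and 269 in WT, and 106 and 78.7 in AMPKα2 KO against 85.7 and 117 in WT. The groups overlapped in both models, with log2 differences of 0.17 (SE 0.45) and -0.13 (SE 0.27). The terminal APS held 33.8% ± 7.2 of its reads in AMPKα1 and 7.83% ± 2.36 in AMPKα2 (SD, n = 4). Over all genes together the terminal share was also lower in AMPKα2, at 32.1% ± 3.8 against 56.3% ± 3.5. The antisense share of all genes was higher there, at 21.8% ± 4.4 against 1.82% ± 0.37. An intronic site chosen after its values were seen, chr11:47733973, had 0, 0, 2 and 1 reads in the AMPKα1 libraries but 111 and 113 in AMPKα2 KO and 130 and 156 in AMPKα2 WT, or 57.8% ± 9.7 of Sgcd reads. The lowest p in AMPKα1 was at chr11:47011386 in an intron, with 37 and 43 reads in KO and none in WT, so KO was at least 8.93-fold higher (adjusted p = 0.543 by edgeR). In AMPKα2 it was at chr11:46975578, downstream of a transcript end, where KO had 4 reads in each library and WT 12 and 9 (log2 difference -1.06, edgeR adjusted p = 0.726). The model difference was not tested, because background and age may change with the model.

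**Figure D4:**
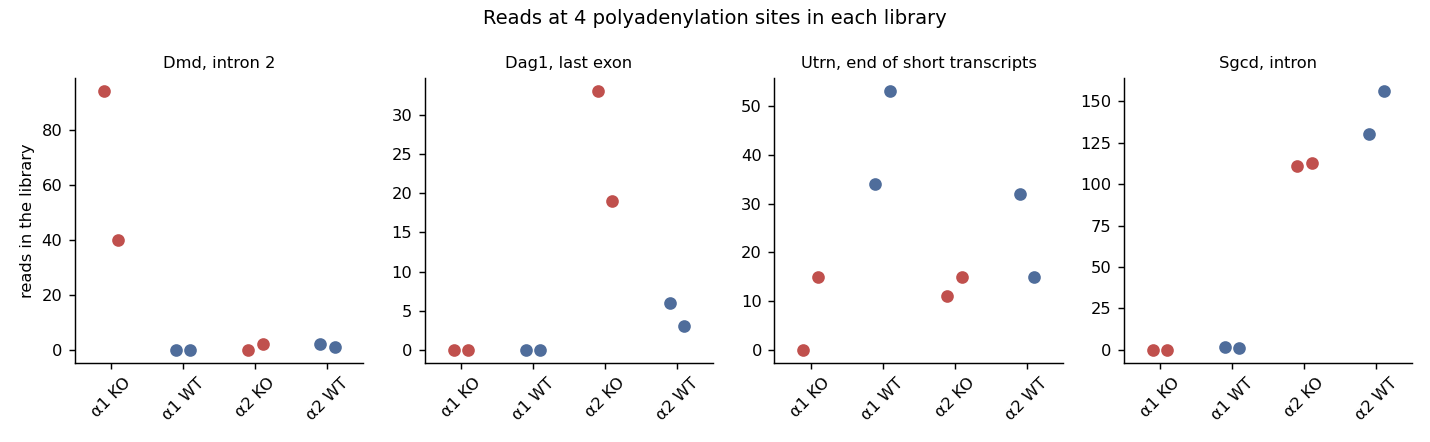
Reads in each library at 4 APSs, with KO in red and WT in blue and 2 libraries per group. The Utrn panel names the site as an end of short transcripts, which was not tested. The Sgcd site was read in the 4 AMPKα2 libraries at 111 to 156 reads and at most at 2 in AMPKα1.

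Dtna had 144 and 139 CPM in AMPKα1 KO and 122 and 218 in WT, and 21.02 and 26.1 in AMPKα2 KO against 18.5 and 16.6 in WT. The groups overlapped in AMPKα1 (log2 difference -0.27, SE 0.46) and not in AMPKα2 (0.43, SE 0.31, edgeR adjusted p = 0.737), where both KO lay above both WT, as for 18.7% of genes. In AMPKα1 introns held 42.7% ± 7.6 of its reads, other exonic APSs 27.3% ± 6.0 and the terminal APS 16.9% ± 8.8. In AMPKα2 the exonic APSs held more, 42.8% ± 7.0, against 26.4% ± 8.4 in introns and 10.3% ± 3.7 at the terminal APS. All genes together had a terminal share of 56.3% ± 3.5 in AMPKα1 and 32.1% ± 3.8 in AMPKα2. The terminal APS (chr18:23659717) had the most reads of the Dtna sites, with 56 and 143 in AMPKα1 KO, 42 and 69 in AMPKα1 WT, 3 and 8 in AMPKα2 KO, and 9 and 2 in AMPKα2 WT. The lowest p in AMPKα1 was at chr18:23635778, downstream of a transcript end, with no read in KO and 16 and 45 in WT. In these libraries KO was at least 12.9-fold lower with KO set to 3 reads per library. The log2 difference was -8.16 (SE 3.72, adjusted p = 0.543 by edgeR). Of the 14 Dtna APSs with at least 20 reads in 1 AMPKα1 KO library, 9 had none in the other. In AMPKα2 the lowest p was at chr18:23656602 in an exon, where KO had 2 and 3 reads and WT 5 and 8 (log2 difference -1.12, edgeR adjusted p = 0.756).

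Lama2 had 184 and 160 CPM in AMPKα1 KO and 177 and 223 in WT, and 20.4 and 30.8 in AMPKα2 KO against 24.1 and 22.7 in WT. The groups overlapped, with log2 differences of -0.21 (SE 0.40) and 0.14 (SE 0.31). Its terminal APS had 51 and 26 reads in AMPKα1 KO and 56 and 216 in WT, a log2 difference of -2.21 (SE 0.98, unadjusted p = 0.0379, edgeR adjusted p = 0.543). In AMPKα2 the terminal APS had the lowest p, where KO had 6 and 11 reads and WT 19 and 13 (log2 difference -0.63, edgeR adjusted p = 0.791). In AMPKα1 it was at chr10:27050819 in an intron, with no read in KO and 11 and 68 in WT. In these libraries KO was at least 15.3-fold lower with KO set to 3 reads per library. The log2 difference was -8.37 (SE 3.52, adjusted p = 0.543 by edgeR). Of the 21 Lama2 APSs with at least 20 reads in 1 AMPKα1 KO library, 14 had none in the other. The intron share was 79.9 and 93.1% in AMPKα1 KO, 71.3 and 66.9% in AMPKα1 WT, 62.5 and 57.7% in AMPKα2 KO, and 59.8 and 43.8% in AMPKα2 WT. It was higher in all AMPKα1 than in all AMPKα2 libraries, as for 7.66% of 3119 genes.

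Over single sites, 291 member APSs could be tested in AMPKα1 and 67 in AMPKα2, and 0 passed, where 0.00454% of 44024 and 0.056% of 23218 APSs passed. An unadjusted p under 0.05 was reached by 5 and 1 of them, and by 1353 and 1765 of all APSs tested. The lowest p in AMPKα1 was that of the Sgca terminal APS. Of the Dmd sites it was that of one in intron 2 (chrX:83166092), with 94 and 40 reads in KO and none in WT, at least 15.1-fold higher in KO when WT is set to 3 reads per library. Its edgeR log2 difference was 8.82 (SE 3.14, adjusted p = 0.543) and its DESeq2 adjusted p 0.0917, where DESeq2 called 1.37% of 15869 APSs. With all 8 libraries in 1 fit, another Dmd site passed (chrX:83925006, adjusted p = 0.0488), as did 0.765% of APSs. It had no read in AMPKα1 KO, 13 and 36 in AMPKα1 WT, 6 and 20 in AMPKα2 KO and 25 and 15 in AMPKα2 WT.

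Partner genes of the complex, in 6 lists with 54 of 64 symbols in the table, gave 0 calls of 52 tested in AMPKα1 and 0 of 49 in AMPKα2. Over all genes 0% of 13924 passed in AMPKα1 and 0.484% of 10536 in AMPKα2, so the absence of calls does not set the partners apart. The other sarcoglycans and sarcospan numbered 4 and were led in reads by Sspn, at 9952, of which 96.6% were antisense to it. In that list Sgce, ε-sarcoglycan, had the lowest p in AMPKα1, with a log2 difference of -1.71. Among the syntrophins, β-dystrobrevin and neuronal nitric oxide synthase, Nos1, the synthase gene, had the lowest p in AMPKα2, with a log2 difference of -1.04 (edgeR adjusted p = 0.638), and Sntb2 in AMPKα1 (0.98). Bgn, which encodes biglycan, had the most reads of the laminin and integrin partners, at 3672, with differences of -0.21 and 0.68. Lama5 had the lowest p of that list in both models, but on few reads. Its AMPKα1 KO libraries held 19 and 41, its WT libraries 4 and 0 (2.95, SE 2.72, edgeR adjusted p = 0.898). For AMPKα2 the counts were 8 and 4 for KO, 5 and 1 for WT (1.51, SE 0.87, edgeR adjusted p = 0.672). Of the dystroglycan glycosylation enzymes, Pomgnt1 had the most reads, at 941. Dolk, dolichol kinase, had the lowest p in AMPKα1 (-3.00, edgeR adjusted p = 0.763) and Ispd in AMPKα2 (-1.82, edgeR adjusted p = 0.406). The AMPKα1 WT libraries differed widely for Dolk, with 283 and 95 reads (91.1 ± 89.8 CPM) against 26 and 55 in KO. Des, the intermediate filament protein desmin, had the most reads of the other membrane and cytoskeletal partners, at 80393, with differences of -0.37 and -0.04, while Anxa6 had the lowest p in AMPKα1 (-1.27) and Dysf, dysferlin, in AMPKα2 (-0.82).

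Among 3248 genes with at least 16 reads in every library, Raph1 (Pearson r = 0.971) and Tomm40l (0.965) were most like Dmd in log2 CPM over the 8 libraries. These values describe libraries that fall into 2 models, and with library totals r was 0.994 and 0.993.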

How the data were processed

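WTTS-seq reads the 3′ ends of polyadenylated RNA. The authors trimmed and filtered Ion PGM reads (FASTX Toolkit), mapped them with TMAP to the mouse genome (GRCm38.p5 in the submitters' processing notes), clustered neighbouring ends into APSs and assigned genes with Cuffcompare. The deposited values are raw read counts per APS and library, not normalized, and every APS has at least 16 reads over the 8 libraries. APSs without a gene held 9.33% of reads and stayed out of the gene test.

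Counts were summed per gene symbol. KO and WT were compared within a model with edgeR 4.0.16 (quasi-likelihood, robust, TMM, at least 16 reads over the 4 libraries, Benjamini-Hochberg over all features, threshold 0.1), per gene, per APS and for APS usage (diffSpliceDGE, Simes). A genotype by model term was fitted over 8 libraries. DESeq2 was an alternative. Functions were tested on simulated data. APSs were placed against GENCODE M21 transcripts and RefSeq gene ends: terminal within 50 bases of the RefSeq end, downstream within 2000 bases of a transcript end or between it and a RefSeq end up to 10000 bases away. The text names, per gene, the APS with the most reads, the terminal APS and the lowest p in each model, and per partner list the genes with the most reads and the lowest p, and the genes most like Dmd over the 8 libraries. Some genes that this rule names are not reported here. The members and lists were chosen with earlier results of these data known. Nothing says how the mice of a group were related, so p-values measure the spread between these libraries.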

Additional observations from a re-analysis of the deposited data

How the results depend on the processing

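Changing 1 setting at a time, 5 settings changed a count of member calls, each from 0 to 1. In AMPKα1 the APS count became 1 with DESeq2 (Dmd, chrX:83166092, adjusted p = 0.0917) and 1 with all 8 libraries fitted together (Dmd, chrX:83925006, adjusted p = 0.0488). In AMPKα2 it became 1 with no filter beyond 1 read (Dag1, chr9:108208675, adjusted p = 0.00403) and 1 with a replicate block (the same site, adjusted p = 0.009), where 2.24% of APSs passed. Leaving out single libraries gave 0 to 1 member genes with an effect that differed between models. The other 69 values of these counts were unchanged. The cause was not tested. Replicate numbers are not shown to pair mice: deviations of same-numbered libraries correlated at 0.034 in AMPKα1 and 0.004 in AMPKα2. The replicate block gave 0 member genes in both models and moved the APS calls in AMPKα2 from 13 to 520 over all features. Library totals moved the median log2 difference of all genes from -0.03 to 0.22 in AMPKα1 and from -0.01 to -0.19 in AMPKα2. They turned the direction of Lama2 in AMPKα1 (0.013) and of Utrn (-0.19), Dag1 (-0.025) and Sgcb (-0.010) in AMPKα2. With the APS with the most reads per gene only, the direction turned for Sgcd (-0.20) and Dtna (0.40) in AMPKα1 and for Dmd (-0.18), Utrn (-0.92), Dag1 (-0.0074) and Lama2 (-0.45) in AMPKα2. With sense-strand APSs only, it turned for Utrn in AMPKα2 (-0.12). Leaving out 1 library in turn gave values on both sides of 0 in AMPKα1 for Utrn (-0.38 to 0.56), Dag1 (-0.36 to 0.67), Sgcb (-0.55 to 0.11), Sgcd (-0.20 to 0.72) and Dtna (-0.63 to 0.25), and in AMPKα2 for Utrn (-0.22 to 0.27), Dag1 (-0.33 to 0.67), Sgcd (-0.36 to 0.11), Lama2 (-0.20 to 0.40) and the Sgcb APS at chr5:73633602 (-0.042 to 0.62). None of the values that changed sign passed the threshold. Chosen after seeing the data, wider windows, sense strand only or at least 50 reads per APS moved 1 share past the spread between libraries, the Lama2 terminal share (29.2% after the change). With the main settings that share was 14.4% ± 10.6 in AMPKα1 and 20.8% ± 5.6 in AMPKα2 (SD, n = 4).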
